A study of Mus musculus with 3 samples.

Results

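Imprinted genes are read from only 1 of the parental chromosomes, and many of them set how fast the embryo and its supporting tissues grow. The 10 genes described here, H19, Igf2, Igf2r, Peg10, Phlda2, Mest, Peg3, Cdkn1c, Grb10 and Meg3, are of this kind and were taken by their listed symbols from the 32285 genes of the deposited tables, and all 10 of 10 were found there. The single-cell RNA libraries came from untreated mouse embryos of the ARC strain at embryonic stages E7.0 and E7.25 and from the posterior part of E7.5 embryos (E7.5 posterior), with 1 library per group. Embryos were taken apart with trypsin and run on a droplet platform that counts the 3′ ends of transcripts, in version 3.0 or 3.1 of its chemistry. The sources used here give neither the number of embryos pooled per library nor the chemistry of each library. Values are unique molecular identifiers (UMIs), each standing for 1 captured RNA molecule. They were summed over cells with at least 1000 detected genes and at most 10% mitochondrial UMIs and scaled to a total of 1000000 UMIs in the same cells (CPM). Where 3 levels, shares or ratios of classes stand in a row without a stage or range, they are for E7.0, then E7.25, then E7.5 posterior.

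In the mouse, H19, Igf2r, Phlda2, Cdkn1c, Grb10 and Meg3 are known to be expressed mainly from the maternal copy, and Igf2, Peg10, Mest and Peg3 from the paternal copy. The paternal-copy genes of this group mostly favour growth, while several maternal-copy genes restrain it: Igf2 is a growth factor, Igf2r takes that factor up for breakdown, Grb10 is an adaptor that dampens insulin and IGF receptor signalling, Phlda2 limits placental growth and Cdkn1c is an inhibitor of cyclin-dependent kinases. H19 and Meg3 are long noncoding RNAs, Peg10 is a protein derived from a retrotransposon that the placenta needs, Mest resembles hydrolases and Peg3 is a zinc finger protein. Imprinting is prominent in the tissues that surround and feed the embryo, such as visceral endoderm, extraembryonic mesoderm and trophoblast. The reads do not show which parental copy an RNA came from, so copy is named here from that background alone.

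Positions follow GENCODE mouse release M21 on GRCm38. H19 (ENSMUSG00000000031, a lincRNA, chr7:142575529-142578143, minus strand) lies 72.6 kb from Igf2 (ENSMUSG00000048583, chr7:142650766-142666816, minus strand). Phlda2 (ENSMUSG00000010760, chr7:143501545-143503150, minus strand) lies 40.5 kb from Cdkn1c (ENSMUSG00000037664, chr7:143458339-143461050, minus strand). Igf2r (ENSMUSG00000023830) is at chr17:12682406-12769664 on the minus strand, Grb10 (ENSMUSG00000020176) at chr11:11930508-12038683 on the minus strand and Meg3 (ENSMUSG00000021268, a lincRNA) at chr12:109541001-109571726 on the plus strand. Peg10 (ENSMUSG00000092035) is at chr6:4747306-4760517 and Mest (ENSMUSG00000051855) at chr6:30723547-30748465, both on the plus strand, and Peg3 (ENSMUSG00000002265) is at chr7:6703892-6730431 on the minus strand. Listed genes overlap Igf2 (Igf2os), Igf2r (Airn), Cdkn1c (Gm44732) and Mest (Copg2, Gm44296) on the opposite strand.

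Promoter sequence was available from RefSeq (GRCm38.p6) for 7 of the 10 genes, not for H19, Peg10 or Cdkn1c. Shown are the 250 bases before a start of Phlda2 and Mest, which stood highest in Hand1 positive cells in every library, and of Meg3, which stood lowest in Mesp1 positive cells in every library. CG dinucleotides, the target of the methylation that marks imprinted copies, are in capitals. The windows are chr7:143502525-143502774 (minus strand) for Phlda2, chr6:30737800-30738049 (plus strand) for Mest and chr12:109540746-109540995 (plus strand) for Meg3. In GENCODE M21 the Mest window is intronic to longer Mest transcripts, the Meg3 window lies outside exons, and the Phlda2 window lies in the exon of a processed Phlda2 transcript, with 17 bases in the 5′ UTR of the coding one.
Phlda2: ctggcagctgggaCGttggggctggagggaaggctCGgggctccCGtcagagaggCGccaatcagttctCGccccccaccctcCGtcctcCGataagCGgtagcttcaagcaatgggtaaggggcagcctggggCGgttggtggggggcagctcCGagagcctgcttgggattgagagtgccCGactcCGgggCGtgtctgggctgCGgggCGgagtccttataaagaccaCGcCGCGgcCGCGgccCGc
Mest: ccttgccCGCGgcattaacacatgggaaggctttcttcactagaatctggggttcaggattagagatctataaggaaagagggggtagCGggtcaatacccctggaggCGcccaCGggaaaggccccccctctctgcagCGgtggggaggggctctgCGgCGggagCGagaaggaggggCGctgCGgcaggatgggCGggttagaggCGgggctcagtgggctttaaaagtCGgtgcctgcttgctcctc
Meg3: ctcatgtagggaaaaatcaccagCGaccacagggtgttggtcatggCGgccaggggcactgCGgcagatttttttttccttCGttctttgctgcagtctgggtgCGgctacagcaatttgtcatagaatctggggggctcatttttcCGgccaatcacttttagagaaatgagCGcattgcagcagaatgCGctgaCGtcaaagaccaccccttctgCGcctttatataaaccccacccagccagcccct

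The Phlda2 window holds 21 CG dinucleotides, more than 83.7% of the 32851 promoter windows of 250 bases in the table, whose median is 6. The Mest window holds 14 and the Meg3 window 10. Both genes have windows at other starts that are not shown, with 7 and 14 CG dinucleotides for Mest and 0 for Meg3. The TATA motif TATAAA, searched on both strands, occurs 1 time in the Phlda2 window and 2 times, on opposite strands and overlapping, in the Meg3 window, against 12.4% of all windows that hold it. The E-box CANNTG, which is palindromic, occurs 1 time each in the Phlda2 and Mest windows (66.2% of all windows hold one), and the GATA motif GATAA, on both strands, 1 time in the Phlda2 window (22.6%). These are matches of letters, and no binding or methylation was measured.

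H19 and Mest also carry microRNAs within their transcription units. The mature forms are given with the seed, bases 2 to 8, in capitals, because a seed sets which messages a microRNA can pair with. They come from RefSeq (GRCm38.p6), at chr7:142577112-142577133 and chr7:142577078-142577099 (minus strand) for the 2 arms of miR-675 and at chr6:30741314-30741336 and chr6:30741354-30741375 (plus strand) for those of miR-335. The 4 seeds differ, and the level of these small RNAs was not measured here.
mmu-miR-675-5p (within H19): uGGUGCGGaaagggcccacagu
mmu-miR-675-3p (within H19): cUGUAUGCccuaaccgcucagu
mmu-miR-335-5p (within Mest): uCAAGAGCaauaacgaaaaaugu
mmu-miR-335-3p (within Mest): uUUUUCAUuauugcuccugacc

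The libraries held 10232 barcodes for E7.0, 6173 for E7.25 and 11468 for E7.5 posterior. Of these, 7941, 5194 and 8438 cells were kept, with 108350108, 47672673 and 87940979 UMIs and a median of 11295, 8298 and 9254.5 UMIs per cell. The median mitochondrial share was 2.26%, 2.39% and 3.44%. Pairs of libraries shared 8 to 22 barcodes among their kept cells. No doublet caller was run on these cells. With 1 library per group there is no test between groups: intervals are exact 95% intervals that cover counting error only, not the spread between embryos, and stage, library and, at E7.5, dissected region cannot be told apart. UMI counts from 3′ ends are not scaled by transcript length, so levels are compared between cells and not between genes.

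The lineages were marked by 5 genes: Utf1 for epiblast, Mesp1 for nascent mesoderm, Hand1 for extraembryonic and lateral mesoderm, Ttr for visceral endoderm and Elf5 for extraembryonic ectoderm. A cell was positive at 2 or more UMIs (10 or more for Ttr) and entered a lineage only if no other of the 5 genes was positive. That also leaves out doublets in which genes of several lineages were positive. This gave 2008, 907 and 1510 Utf1 positive cells, 2702, 918 and 2153 Mesp1 positive cells, 51, 358 and 276 Hand1 positive cells, and 676, 802 and 406 Ttr positive cells. Cells positive for Mesp1 and Hand1 and for no other lineage gene, 348, 276 and 464, were kept as a class of their own, a choice made after the data were seen. Cells with no lineage gene positive numbered 1713, 1475 and 3449.

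Elf5 gave almost no class under this rule, with 2, 22 and 1 cells. Of all Elf5 positive cells (85, 245 and 11), 82, 216 and 10 were also Utf1 positive, so levels are also given for every Elf5 positive cell at E7.0 and E7.25, likewise a class added after the data were seen. Lineages under 20 cells in a library have no level. The other markers of each lineage were mostly highest in their own cells: 7 of 7 for Ttr in every library, 5 or 6 of 6 for Utf1, Mesp1 and Hand1, and 6 of 7 for all Elf5 positive cells. The exceptions were Epcam for Utf1 at E7.25, Msgn1 for Mesp1 at E7.0 and E7.25, Tbx3 for Hand1 at E7.25 and E7.5 posterior, and Esx1 for Elf5.

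All 10 genes stood highest outside the epiblast class. In each library 10 of 10 were highest in Hand1, Ttr or Elf5 positive cells. Of these, the Hand1 class can hold lateral mesoderm of the embryo as well as extraembryonic mesoderm. That place was also where 65.8% of all 6417 genes measured at E7.0, 76.7% of 7193 at E7.25 and 62.2% of 6584 at E7.5 posterior were highest. A place outside the epiblast is thus shared with most genes. H19, Igf2r, Meg3, Igf2 and Peg10 stood highest in Ttr positive cells in all 3 libraries. Phlda2, Mest and Peg3 stood highest in Hand1 positive cells in all 3 libraries.

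**Figure D1:**
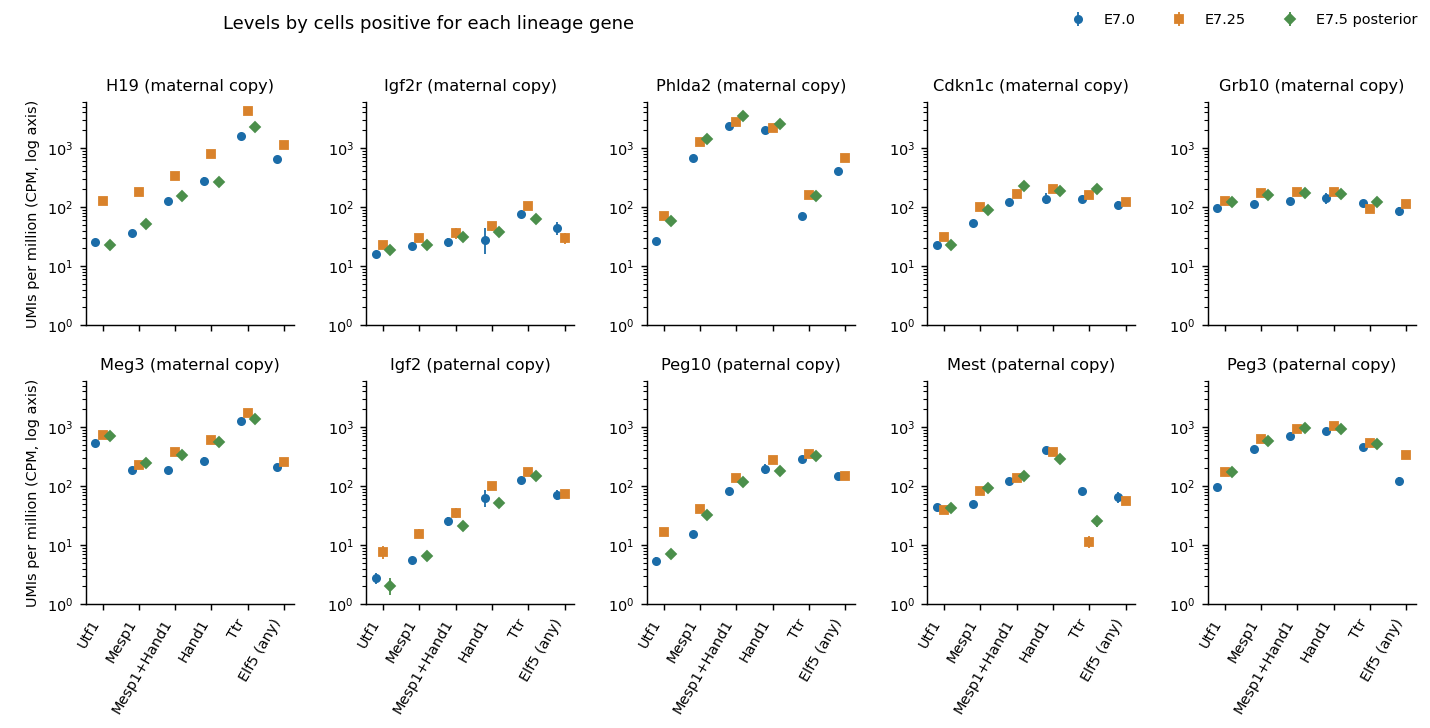
Level of each of the 10 genes (CPM, log axis, exact 95% Poisson intervals) in cells positive for each lineage gene, with 1 symbol per library; Mesp1+Hand1 are cells positive for both and Elf5 (any) all Elf5 positive cells. H19 in Ttr positive cells reached 1582, 4263 and 2282 CPM, against 25.5, 127 and 22.7 CPM in Utf1 positive cells.

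Against the epiblast class, 7 of 10 genes were at least 2-fold higher in Hand1 positive cells in all 3 libraries (H19, Phlda2, Cdkn1c, Igf2, Peg10, Mest and Peg3), beside 3.74% of the 5029 genes measured, and 0 of 10 were at least 2-fold lower in all 3, beside 2.13%. In Ttr positive cells 7 of 10 were higher in all 3 (H19, Igf2r, Phlda2, Cdkn1c, Igf2, Peg10 and Peg3), beside 17.4% of 5648 genes, and 0 of 10 lower, beside 6.36%. In Mesp1 positive cells 3 of 8 measured were higher in all 3 (Phlda2, Cdkn1c and Peg3), beside 2.64% of 4890 genes, and 1 of 8 lower, Meg3, beside 2.82%. A gene counted as measured where 1 or both of the classes compared reached 20 CPM. In Utf1 positive cells Igf2 and Peg10 were under 20 CPM in every library, and Igf2r at E7.0 and E7.5 posterior. They were thus measured there only through the Hand1 or Ttr class. For Igf2, at 2.75, 7.57 and 2.03 CPM in Utf1 positive cells, higher was the only call possible, so its place in these counts is no separate result.

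The ligand Igf2 was scarce in the epiblast and nascent mesoderm classes and higher in Hand1 and Ttr positive cells. It stood at 2.75, 7.57 and 2.03 CPM in Utf1 positive cells and at 5.53, 15.7 and 6.53 CPM in Mesp1 positive cells. Hand1 positive cells held 62.5 (95% interval 44.4 to 85.4), 99.2 and 51.5 CPM and Ttr positive cells 126 (118 to 133), 176 and 149 CPM. The intervals of the Ttr, Hand1, Mesp1 and Utf1 classes did not overlap in any library, and Ttr positive cells stood 45.8-, 23.2- and 73.3-fold above Utf1 positive cells. Elf5 positive cells as a whole held 71.8 CPM at E7.0 and 73.5 at E7.25. Cells positive for both Mesp1 and Hand1 stood between those positive for either alone, at 25.2, 35.2 and 21.1 CPM.

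Few epiblast cells carried an Igf2 UMI. After each cell was thinned to 5000 UMIs, 1.31%, 3.22% and 0.815% of Utf1 positive cells had 1 or more, against 45.9%, 55.2% and 44.9% of Ttr positive cells. The unthinned shares were 3.59%, 6.17% and 2.19% against 66.3%, 68.5% and 60.3%. Thinning left out 105, 37 and 37 Utf1 positive and 75, 117 and 70 Ttr positive cells as too shallow. The epiblast share is the lowest of the classes and is not read as expression. Free RNA in droplets can give such counts, and its part here was not tested.

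Igf2r, the receptor that removes the ligand, was spread more evenly. It stood at 15.9, 22.7 and 19.1 CPM in Utf1 positive cells, 21.8, 30.1 and 22.6 in Mesp1 positive cells, 27.2, 47.3 and 37.4 in Hand1 positive cells and 77.2 (71.5 to 83.3), 103 (95.6 to 111) and 63.4 (55.7 to 71.9) in Ttr positive cells. Ttr positive cells were 4.85-, 4.55- and 3.32-fold above Utf1 positive cells, and their intervals lay clear of every other class. Hand1 and Mesp1 positive cells overlapped at E7.0, where the Hand1 class held 17 Igf2r UMIs (45.8 CPM after thinning each cell to 5000 UMIs), and Mesp1 and Utf1 positive cells overlapped at E7.5 posterior. At E7.25 the interval of the 22 Elf5 positive cells, 13.1 to 77.9 CPM, covered those of the Hand1, Mesp1 and Utf1 classes.

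The number of receptor UMIs per ligand UMI differed between classes. There were 5.79, 3.00 and 9.39 Igf2r UMIs per Igf2 UMI in Utf1 positive cells and 3.95, 1.92 and 3.46 in Mesp1 positive cells. Hand1 positive cells had 0.436, 0.477 and 0.725 and Ttr positive cells 0.614, 0.588 and 0.426. The ratios in Utf1 positive cells rest on 81, 64 and 38 Igf2 UMIs, which are not read as expression, and are no measure of epiblast ligand. Both genes were counted at their 3′ ends, so the ratio compares classes and does not say how many receptor messages there were per ligand message.

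Grb10 was the most even of the 10 genes. Utf1 positive cells held 97.3, 127 and 121 CPM, Mesp1 positive cells 113, 175 and 159, Hand1 positive cells 141, 180 and 165, and Ttr positive cells 116, 91.0 and 122. The highest class exceeded the lowest by 1.45-, 2.10- and 1.36-fold. Neighbours overlapped in each library: Hand1 with Ttr and Ttr with Mesp1 at E7.0, Elf5 with Hand1 and Hand1 with Mesp1 at E7.25, and Hand1 with Mesp1 and Ttr with Utf1 at E7.5 posterior. The top place of the 22 Elf5 positive cells at E7.25 (191 CPM, 131 to 269, from 32 UMIs) did not hold for all Elf5 positive cells, which stood at 114 CPM.

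Phlda2 was high in mesoderm and low in epiblast. It stood at 26.2, 70.0 and 57.5 CPM in Utf1 positive cells, at 679 (670 to 687), 1253 (1229 to 1277) and 1402 (1386 to 1417) CPM in Mesp1 positive cells and at 2046 (1935 to 2162), 2214 and 2556 CPM in Hand1 positive cells. Cells positive for both mesoderm genes held more than those positive for either alone, at 2385 (2345 to 2426), 2759 and 3483 CPM. Ttr positive cells held 71.8, 159 and 156 CPM. The 22 Elf5 positive cells at E7.25 stood between the Mesp1 and Ttr classes. Of thinned Elf5 positive cells as a whole, 77.4% at E7.0 and 85.1% at E7.25 had a Phlda2 UMI (unthinned 96.5% and 95.5%). No 2 neighbouring classes overlapped, and Hand1 positive cells were 78.2-, 31.6- and 44.5-fold above Utf1 positive cells.

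Nearly every cell positive for both Mesp1 and Hand1 carried Phlda2: 99.4%, 99.3% and 100% after thinning to 5000 UMIs and 99.7%, 99.6% and 100% without it. In Mesp1 positive cells the thinned shares were 72.1%, 87.3% and 87.7% (unthinned 83.8%, 91.5% and 92.7%), and in Utf1 positive cells 11.3%, 17.9% and 22.8% (unthinned 26.6%, 28.9% and 41.9%). Single cells reached 260, 95 and 162 Phlda2 UMIs, each in the class positive for both genes. Mesp1 positive cells were 34.0%, 17.7% and 25.5% of kept cells and held 55.6%, 29.4% and 44.4% of all Phlda2 UMIs of their library.

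Cdkn1c, like Phlda2, was lowest in Utf1 positive cells but had a narrower span, and Ttr positive cells stood above the Mesp1 class in each library. Utf1 positive cells held 22.7, 30.9 and 22.5 CPM, Mesp1 positive cells 54.3, 101 and 88.8, Hand1 positive cells 138 (110 to 170), 202 (187 to 219) and 185 (170 to 201), and Ttr positive cells 139 (131 to 147), 157 (148 to 167) and 202 (188 to 217). The Hand1 and Ttr classes overlapped at E7.0 and E7.5 posterior, and at E7.25 the Hand1 class stood above the Ttr class. Within Ttr positive cells the level was uneven: the 10% of cells with most Cdkn1c UMIs held 71.6%, 65.0% and 66.6% of them. That share was 43.0%, 39.9% and 33.3% in Hand1 positive cells. In Ttr positive cells with 50 or more Ttr UMIs Cdkn1c reached 194, 215 and 344 CPM, against 81.0, 124 and 164 CPM in those with 20 to 49 and 109, 107 and 95.1 CPM in those with 10 to 19. At E7.0 the middle range was thus the lowest.

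H19, the noncoding RNA beside Igf2, was concentrated in visceral endoderm. Utf1 positive cells held 25.5 (23.8 to 27.4), 127 (120 to 135) and 22.7 (20.6 to 24.9) CPM and Mesp1 positive cells 36.3, 179 and 52.1 CPM. Hand1 positive cells held 279, 774 and 269 CPM, and Ttr positive cells 1582 (1555 to 1609), 4263 (4213 to 4314) and 2282 (2234 to 2330) CPM. No classes overlapped, and Ttr positive cells were 61.9-, 33.5- and 101-fold above Utf1 positive cells. Elf5 positive cells as a whole stood between the Hand1 and Ttr classes, at 647 CPM at E7.0 and 1132 at E7.25.

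Ttr positive cells were 8.51%, 15.4% and 4.81% of kept cells and held 60.1%, 62.4% and 60.2% of all H19 UMIs. They also held 52.2%, 46.8% and 44.2% of Igf2 UMIs and 49.7%, 42.0% and 28.8% of Peg10 UMIs, against 7.94%, 13.7% and 4.34% of all UMIs. H19 was found in 95.8%, 100% and 99.7% of thinned Ttr positive cells (97.6%, 100% and 99.3% unthinned). In thinned Utf1 positive cells the share was 11.1%, 35.9% and 9.44% (25.5%, 50.6% and 22.1% unthinned).

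Summed markers of visceral endoderm and of extraembryonic ectoderm, like H19, were highest at E7.25 in the Utf1 and Mesp1 classes. Between the other libraries these sums did not always go with H19. Markers of other cell types did not all do so in Utf1 positive cells. The Hand1 class, blood, parietal endoderm and giant cell sums were highest at E7.25. The Mesp1 class and definitive endoderm sums were highest at E7.0 and the germ cell sum at E7.5 posterior. The 8 visceral endoderm markers summed to 66.1, 144 and 33.9 CPM in Utf1 positive cells and the 8 extraembryonic ectoderm markers to 30.2, 106 and 10.1 CPM, highest at E7.25 as H19 was. In the Utf1 positive cells without a UMI of any of these 16 markers (923, 313 and 972 cells), H19 stood at 20.8, 73.4 and 19.3 CPM, still highest at E7.25 but lower there than in the whole class. These cells were also shallower, with a median of 10429, 7960 and 10551.5 UMIs per cell against 11753, 8749 and 10962.5 in the whole class. The part of depth in their levels was not tested. The number of H19 UMIs per Ttr UMI was 2.28, 4.32 and 4.66 in Utf1 positive cells, 24.9, 34.1 and 25.8 in Hand1 positive cells and 0.412, 0.794 and 0.590 in Ttr positive cells.

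The low levels of the epiblast class rest on its definition. Where cells positive for several lineage genes counted in each of them, which puts most Elf5 positive cells into the Utf1 class, H19 stood at 122, 471 and 41.4 CPM in Utf1 and at 66.7, 330 and 78.1 CPM in Mesp1 positive cells. In the Utf1 class Phlda2 then stood at 75.7, 325 and 125 CPM, Igf2 at 10.4, 27.2 and 3.50 CPM, while Peg10 stood at 20.5, 56.7 and 12.6 CPM. With positivity at 4 UMIs (20 for Ttr), the Utf1 class at E7.25 held 266 CPM of H19, 112 of Phlda2, 17.1 of Igf2 and 34.2 of Peg10. In the first setting the Utf1 class stood above the Mesp1 class for H19 and Igf2 at E7.0 and E7.25, and above the Ttr class for Phlda2 at E7.25; in the second it stood above the Mesp1 class for H19 and Igf2 at E7.25. The highest class stayed Ttr for H19, Igf2 and Peg10 and Hand1 for Phlda2 in both settings.

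Meg3 was the exception in the embryo proper, high in epiblast and low in nascent mesoderm. Utf1 positive cells held 531 (523 to 540), 732 (714 to 751) and 699 (687 to 711) CPM and Mesp1 positive cells 184 (179 to 188), 230 (220 to 240) and 248 (242 to 254). Cells positive for both mesoderm genes held 189, 381 and 339 CPM and Hand1 positive cells 263, 597.5 and 558 CPM. Ttr positive cells were highest, at 1240, 1716 and 1351 CPM. The Mesp1 and Utf1 classes did not overlap in any library, with log2 ratios of -1.53, -1.67 and -1.50. Elf5 positive cells as a whole were low too, at 210 CPM at E7.0 and 251 at E7.25. Of thinned cells, 84.5%, 90.2% and 92.7% of the Utf1 class and 49.6%, 54.9% and 54.9% of the Mesp1 class had a Meg3 UMI (unthinned 91.7%, 94.5% and 97.2% against 73.1%, 68.5% and 68.3%).

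Peg10 ran in parallel with Igf2. It stood at 5.43, 16.7 and 7.06 CPM in Utf1 positive cells, 15.5, 41.0 and 31.9 in Mesp1 positive cells, 195 (162 to 233), 278 (259 to 297) and 179 (164 to 195) in Hand1 positive cells and 286 (275 to 298), 348 (334 to 363) and 328 (310 to 346) in Ttr positive cells. The 4 classes did not overlap in any library. The span from Utf1 to Ttr positive cells was 52.7-, 20.9- and 46.5-fold. In thinned cells a Peg10 UMI was found in 67.1%, 77.1% and 75.9% of the Ttr class (unthinned 82.0%, 86.4% and 80.3%) and 2.10%, 6.55% and 2.99% of the Utf1 class (unthinned 6.32%, 11.1% and 7.48%).

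Mest separated mesoderm of the Hand1 class from visceral endoderm. Hand1 positive cells held 409 (360 to 462), 383 (362 to 406) and 289 (270 to 309) CPM, Mesp1 positive cells 50.3, 82.8 and 91.2 CPM and Utf1 positive cells 44.2, 39.5 and 43.1 CPM. Ttr positive cells held 82.5 (76.5 to 88.8) CPM at E7.0 but 11.2 (8.78 to 14.1) at E7.25 and 25.1 (20.4 to 30.7) at E7.5 posterior. The Ttr class was thus above the Utf1 class at E7.0 and below it in the other libraries. Hand1 positive cells exceeded the lowest class by 9.25-fold (Utf1) at E7.0, 34.2-fold (Ttr) at E7.25 and 11.5-fold (Ttr) at E7.5 posterior. Where cells positive for several lineage genes counted in each, Mest in the Hand1 class stood at 131, 191 and 190.7 CPM and in the Ttr class at E7.25 at 25.2 CPM.

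The Mest level of Ttr positive cells differed with the number of Ttr UMIs they carried. Cells with 10 to 19, 20 to 49 and 50 or more Ttr UMIs (137, 285 and 254 cells) held 244, 86.4 and 25.3 CPM at E7.0. At E7.25 (138, 401 and 263 cells) they held 23.9, 12.7 and 5.07 CPM, and at E7.5 posterior (97, 223 and 86 cells) 64.3, 18.3 and 10.9 CPM. At E7.0 the 10% of Ttr positive cells with most Mest UMIs held 79.0% of them. The mesoderm markers summed to 578, 310 and 128 CPM and the definitive endoderm markers (Sox17, Foxa2, Trh and Cer1) to 842, 299 and 202 CPM in these 3 ranges at E7.0. At E7.25 the sums were 80.9, 80.7 and 71.4 CPM and 210, 202 and 146 CPM, and at E7.5 posterior 155, 79.7 and 70.8 CPM and 735, 239 and 217 CPM. Both sums were lowest in the highest range of Ttr in each library, as Mest was, though the mesoderm sums at E7.25 were close. The part of these cells in the Mest level was not tested. Cells with more Ttr UMIs were also deeper, with a median of 6821, 9693 and 13700.5 UMIs per cell in the 3 ranges at E7.0. It was 6080.5, 7381 and 9077 at E7.25 and 5755, 8027 and 11683.5 at E7.5 posterior. The part of depth in the levels by range was not tested. The ranges of Ttr were set after the data were seen.

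H19 and Meg3 took the opposite order at E7.0. From the lowest to the highest range of Ttr, H19 stood at 736, 1453 and 1964 CPM and Meg3 at 923, 1211 and 1369 CPM. At E7.25 H19 was level, at 4187, 4308 and 4236 CPM, and Meg3 stood at 1714, 1636 and 1814 CPM. At E7.5 posterior H19 stood at 1644, 2365 and 2565 CPM and Meg3 at 1051, 1432 and 1411 CPM. Each range at E7.0 held less H19 than any range at E7.25.

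**Figure D2:**
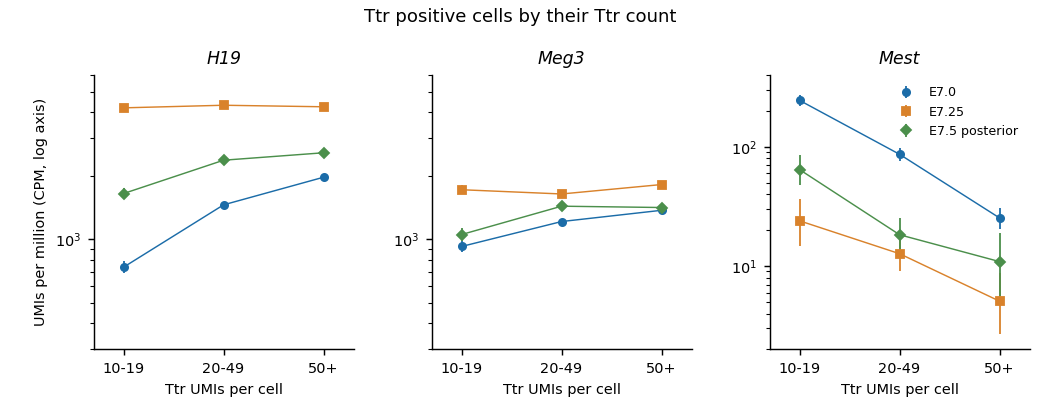
H19, Meg3 and Mest (CPM, log axes that differ between panels, exact 95% Poisson intervals) in Ttr positive cells with 10 to 19, 20 to 49 and 50 or more Ttr UMIs, with 1 line per library. Mest is lower in the ranges of higher Ttr in each library, from 244 to 25.3 CPM at E7.0. H19 goes from 736 to 1964 CPM at E7.0 and stays between 4187 and 4308 CPM at E7.25. Median depth per cell is also higher in the ranges of higher Ttr.

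The mitochondrial share also moved with the levels of H19 and Mest inside the Ttr class. In Ttr positive cells with at most 5% mitochondrial UMIs (436, 317 and 91 cells) H19 stood at 1276, 3656 and 1252 CPM, and in those above 5% (240, 485 and 315 cells) at 2292, 4763 and 2481 CPM. Mest stood at 109, 15.3 and 51.8 CPM in the first set and 20.4, 7.83 and 20.01 CPM in the second. Cdkn1c went with Mest, at 174, 186 and 289.5 CPM in the first set and 57.1, 134 and 185 CPM in the second. The 2 sets also differed in other ways: the visceral endoderm markers summed to 12457, 17680.2 and 12414 CPM against 18139, 19996 and 15605 CPM, and the mesoderm markers to 312, 84.7 and 95.4 CPM against 159, 70.8 and 91.3 CPM. The median depth was 11586.5, 8874 and 4362 UMIs per cell against 9636, 7092 and 8883. The part of each in the levels was not tested. The order of the libraries for H19 changed with this split: E7.5 posterior stood above E7.0 in the cells above 5% and overlapped it in the others, at 1247 to 1304 and 1165 to 1343 CPM. Igf2, Peg10, Igf2r and Meg3 went with H19 in each library. In the cells with at most 5%, Igf2 stood at 97.6, 145 and 93.8 CPM, against 191, 201 and 159 CPM in those above 5%. Peg10 stood at 220, 283 and 226 CPM against 439, 402 and 347 CPM, and Igf2r at 58.4, 82.0 and 35.6 CPM against 121, 121 and 68.8 CPM. Grb10 went with Mest in each library, while the order for Phlda2 and Peg3 differed between libraries.

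Peg3 was present in every class and highest in mesoderm. It stood at 95.5, 172 and 175 CPM in Utf1 positive cells, 420 (414 to 427), 616 (599 to 633) and 571 (561 to 581) in Mesp1 positive cells, 840 (769 to 915), 1019 (983 to 1055) and 929 (894 to 964) in Hand1 positive cells and 462, 529 and 519 in Ttr positive cells. No classes overlapped. Elf5 positive cells as a whole held 124 CPM at E7.0 and 333 at E7.25. Thinned cells had a Peg3 UMI in 97.9%, 95.4% and 94.6% of the Hand1 class and 33.6%, 51.7% and 50.8% of the Utf1 class (unthinned 98.0%, 96.6% and 97.8% against 59.2%, 68.9% and 74.0%).

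The Hand1 class held markers of other tissues as well. The 4 blood and endothelium markers summed to 311, 187 and 121 CPM there. The giant and ectoplacental cell list summed to 521, 734 and 552 CPM. It includes Hand1, which defined the class, so the sum is high by that choice and is not read as a sign of those cells. Of its other genes, Ascl2 stood at 1.60, 3.56 and 4.71 CPM, and Prl3d1 was at 0 at E7.0 and E7.5 posterior. The sum without Hand1 was not taken. The part of cells of other tissues in the Hand1 levels was not tested.

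Between whole libraries, all 10 genes stood higher at E7.25 than at E7.0. The median log2 ratio was 0.72, against 0.12 over the 5585 genes measured, and 3 of 10 were at least 2-fold higher (H19, Igf2 and Peg10), beside 2.78% of genes. None of the 10 was at least 2-fold lower, beside 1.52%. The log2 ratios were 2.16 (2.14 to 2.18) for H19, 1.43 (1.34 to 1.51) for Igf2 and 1.31 (1.26 to 1.37) for Peg10. They were 0.82 for Phlda2, 0.80 for Cdkn1c, 0.64 for Meg3, 0.62 for Igf2r and Peg3, 0.35 for Grb10 and 0.27 for Mest.

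From E7.25 to E7.5 posterior the same 3 genes were at least 2-fold lower, 3 of 10 beside 3.29% of 5625 genes, and 0 of 10 were higher, beside 1.01%. The median log2 ratio was -0.36, against -0.09 over all genes. H19 stood at -2.51, Igf2 at -1.81 and Peg10 at -1.20 (log2). Igf2r stood at -0.68, Cdkn1c at -0.39, Meg3 at -0.32, Mest at -0.15, Peg3 at -0.10, Grb10 at 0.00 and Phlda2 at 0.17. The E7.25 library enters both this comparison and the one with E7.0, so a value particular to it would show in both with opposite signs.

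E7.5 posterior was also compared with E7.0. Of 9 genes measured, Igf2 being under 20 CPM in both, 0 were at least 2-fold apart in either direction, beside 1.57% of 5283 genes. Beside that share, a count of 0 is no result about these genes. Phlda2 came nearest at 1.99-fold, from 412 to 819 CPM (log2 0.99, 0.98 to 1.01), and Peg3 stood at 0.52 (log2). The median was 0.32, against 0.01 over all genes. With cells of at most 5% mitochondrial UMIs, 2 genes passed 2-fold, Phlda2 at 1.01 and H19 at -1.13 (log2), where H19 stood at -0.34 in all kept cells.

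**Figure D3:**
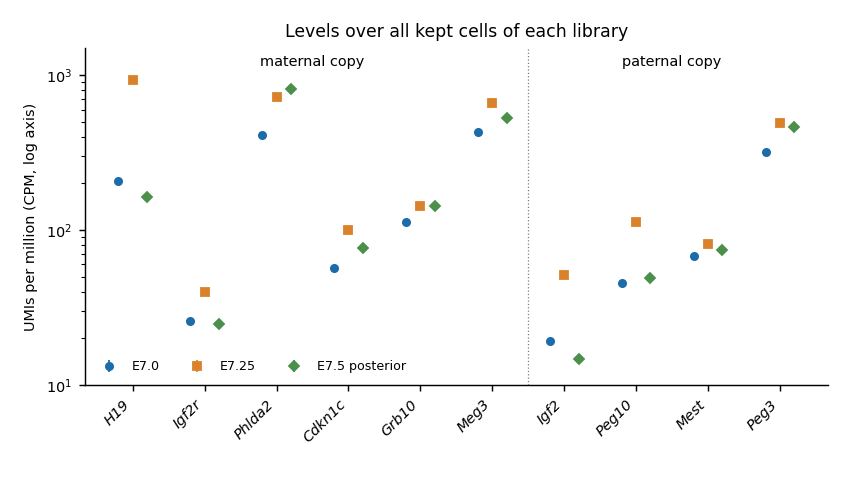
Level of each gene over all kept cells of a library (CPM, log axis, exact 95% Poisson intervals), with genes of the maternal copy left and of the paternal copy right of the dotted line. H19 stands at 209, 934 and 165 CPM and Igf2 at 19.1, 51.3 and 14.6 CPM, both highest at E7.25, while Phlda2 stands at 412, 729 and 819 CPM.

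The 3 genes with the widest differences between libraries were also those concentrated in Ttr positive cells, whose share differed between libraries, so the comparison was repeated within classes. H19 remained higher at E7.25 than at E7.0 in each: the log2 ratio was 2.32 (2.18 to 2.45) in Utf1, 2.31 (2.20 to 2.41) in Mesp1, 1.47 (1.25 to 1.70) in Hand1 and 1.43 (1.40 to 1.46) in Ttr positive cells. Igf2 stood at 1.46, 1.50, 0.67 and 0.48 and Peg10 at 1.62, 1.40, 0.51 and 0.28 in the same order of classes. In all Hand1 and all Ttr positive cells Igf2 and Peg10 were less than 2-fold apart, while H19 was more. The ratios of Igf2 and Peg10 in Utf1 positive cells rest on 81 and 64 Igf2 UMIs and on 160 and 141 Peg10 UMIs at E7.0 and E7.25. In cells without a UMI of the 16 visceral endoderm and extraembryonic ectoderm markers, H19 stood at 1.82, 2.02 and 1.28 in Utf1, Mesp1 and Hand1 positive cells. Igf2 then stood at 0.49 (-0.88 to 1.70) and 0.55 (-0.20 to 1.24) in Utf1 and Mesp1 positive cells, with intervals that include 0, and at 1.15 (0.33 to 2.08) in Hand1 positive cells, where it rests on 14 UMIs at E7.0. Its level at E7.25 was 3.04 instead of 7.57 CPM in Utf1 and 8.18 instead of 15.7 CPM in Mesp1 positive cells. Peg10 stood at 1.83, 0.96 and 0.18.

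From E7.25 to E7.5 posterior, H19 stood at -2.49 in Utf1, -1.79 in Mesp1, -1.52 in Hand1 and -0.90 (-0.94 to -0.87) in Ttr positive cells (log2). Igf2 stood at -1.90, -1.26, -0.94 and -0.24 and Peg10 at -1.24, -0.36, -0.63 and -0.09 in that order. In the cells without those 16 markers, Igf2 stood at -1.49 (-2.90 to 0.01), -0.37 (-1.06 to 0.37) and -0.76 and Peg10 at -0.92, -0.01 and -0.45 in Utf1, Mesp1 and Hand1 positive cells. The Peg10 interval in Ttr positive cells, -0.19 to 0.01, included 0. Phlda2 was higher at E7.25 than at E7.0 by 1.42 in Utf1, 0.88 in Mesp1 and 1.15 in Ttr positive cells but by 0.11 (0.03 to 0.20) in Hand1 positive cells, or -0.01 (-0.14 to 0.12) in those without the 16 markers. Meg3 was higher by 1.19 (0.95 to 1.42) in Hand1 positive cells, against 0.46 in Utf1, 0.32 in Mesp1 and 0.47 in Ttr positive cells. Mest was lower by -2.88 (-3.25 to -2.53) in Ttr positive cells and higher by 0.72 (0.59 to 0.85) in Mesp1 positive cells.

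Genes of the maternal copy and of the paternal copy were compared by their summed UMIs. Over all kept cells the 6 maternal-copy genes summed to 1245, 2614 and 1762 CPM and the 4 paternal-copy genes to 453, 741 and 599 CPM. The log2 ratio of maternal to paternal UMIs was 1.46 (1.44 to 1.47) at E7.0, 1.82 (1.80 to 1.84) at E7.25 and 1.56 (1.54 to 1.57) at E7.5 posterior. These intervals do not overlap. Without H19 the ratio was 1.19, 1.18 and 1.41, so the E7.25 library no longer stood above E7.0. Because levels of different genes are not on 1 scale, the ratio compares cells and libraries and says nothing of whether maternal or paternal copies are the more active.

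Classes differed more than libraries did. The log2 ratio was 2.28 (2.23 to 2.33), 2.23 and 2.05 in Utf1 positive cells, 1.15 (1.12 to 1.17), 1.38 and 1.49 in Mesp1 positive cells, 0.94 (0.83 to 1.06), 1.17 and 1.38 in Hand1 positive cells and 1.75 (1.72 to 1.79), 2.61 (2.57 to 2.65) and 2.03 in Ttr positive cells. In cells positive for both mesoderm genes it was 1.65, 1.63 and 1.80, and in Elf5 positive cells as a whole 1.88 at E7.0 and 1.93 at E7.25. The Hand1 class had the lowest ratio of these in every library. The Utf1 class had the highest at E7.0 and the Ttr class at E7.25, while their intervals overlapped at E7.5 posterior.

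**Figure D4:**
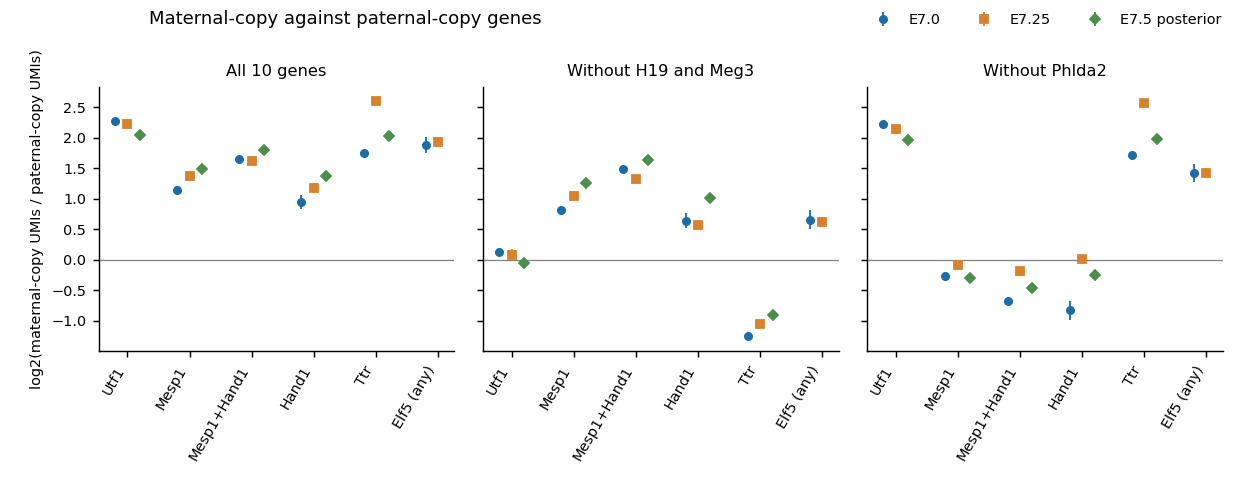
Log2 ratio of the summed UMIs of maternal-copy to paternal-copy genes by class of cells (exact 95% intervals), with 1 symbol per library, for all 10 genes, without H19 and Meg3, and without Phlda2; 0 is the grey line. In Ttr positive cells the ratio goes from 1.75, 2.61 and 2.03 with all genes to -1.24, -1.06 and -0.91 without H19 and Meg3, and in Mesp1 positive cells from 1.15, 1.38 and 1.49 to -0.27, -0.08 and -0.30 without Phlda2.

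The gene that led the maternal sum differed between epiblast, mesoderm and visceral endoderm classes. Meg3 made up 73.9%, 66.0% and 74.2% of maternal-copy UMIs in Utf1 positive cells. Phlda2 made up 62.4%, 63.7% and 71.1% in Mesp1 positive cells and 70.7%, 55.1% and 67.8% in Hand1 positive cells, and H19 49.03%, 65.7% and 54.6% in Ttr positive cells. On the paternal side Peg3 was largest in all 4 classes: 64.6%, 73.0% and 77.0% in Utf1, 85.5%, 81.5% and 81.5% in Mesp1, 55.7%, 57.3% and 64.1% in Hand1 and 48.3%, 49.7% and 50.8% in Ttr positive cells. In Elf5 positive cells as a whole H19 led the maternal sum, with 43.1% at E7.0 and 48.6% at E7.25, and Peg10 led the paternal sum at E7.0, with 36.1%.

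Removing the leading genes changed the order of the classes. Without the noncoding H19 and Meg3, the log2 ratio was 0.13, 0.09 and -0.05 in Utf1 positive cells and -1.24, -1.06 and -0.91 in Ttr positive cells. It was 0.82, 1.05 and 1.26 in Mesp1 and 0.64, 0.57 and 1.02 in Hand1 positive cells. Without Phlda2 it was -0.27, -0.08 and -0.30 in Mesp1 and -0.83, 0.02 and -0.25 in Hand1 positive cells, and 2.23, 2.14 and 1.96 in Utf1 and 1.72, 2.57 and 1.98 in Ttr positive cells. In cells positive for both Mesp1 and Hand1 it was 1.49, 1.33 and 1.63 without H19 and Meg3. Of these 5 classes, that class had the highest and the Ttr class the lowest ratio over the protein-coding genes in each library.

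**Figure D5:**
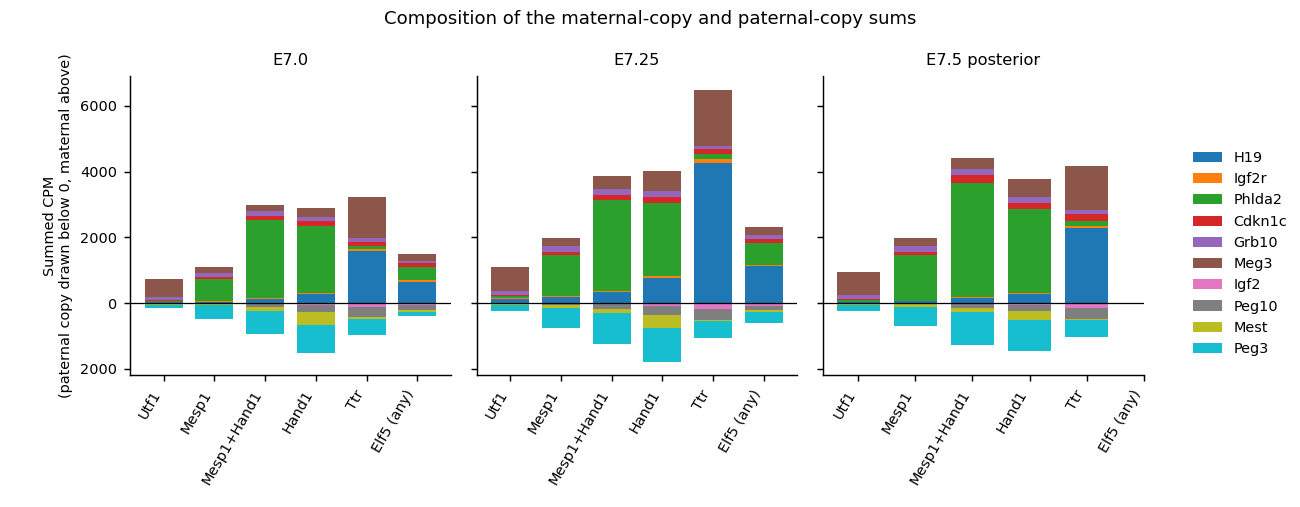
Summed CPM of the maternal-copy genes (above 0) and paternal-copy genes (below 0) by class of cells in each library, with 1 colour per gene. The maternal sum is mostly Meg3 in Utf1 positive cells (73.9%, 66.0% and 74.2%), mostly Phlda2 in Mesp1 positive cells (62.4%, 63.7% and 71.1%) and led by H19 in Ttr positive cells (49.03%, 65.7% and 54.6%).

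For the neighbours H19 and Igf2, which share enhancers and are expressed from opposite copies, the ratio of UMIs is given by class. There were 9.30, 16.8 and 11.2 H19 UMIs per Igf2 UMI in Utf1 positive cells, 6.56, 11.4 and 7.97 in Mesp1 positive cells, 4.46, 7.80 and 5.23 in Hand1 positive cells and 12.6, 24.3 and 15.3 in Ttr positive cells. The order Ttr, Utf1, Mesp1, Hand1 was the same in the 3 libraries, though not all neighbours were resolved, and in each class the ratio was highest at E7.25. The intervals of the Ttr and Hand1 classes did not overlap in any library, while those of the Utf1 and Mesp1 classes overlapped in each, those of the Mesp1 and Hand1 classes at E7.0, and those of the Ttr and Utf1 classes at E7.0 and E7.5 posterior. Visceral endoderm markers were present in the Utf1 class, as given above, and the part of free RNA in the Utf1 and Mesp1 ratios was not tested. The other pair on chromosome 7, Phlda2 and Cdkn1c, was less parallel over the 13 profiles (class by library, at least 20 cells), with a Pearson r of 0.60 on log2(CPM + 10).

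Over these 13 profiles, the pairs most alike were Igf2 and Peg10 (r = 0.98), H19 and Igf2 (0.97) and H19 and Igf2r (0.94), and Phlda2 and Peg3 had 0.83. Meg3 ran against Phlda2 (-0.58) and Grb10 (-0.54). The profiles share libraries and depth, so these values describe the data and carry no p-value. Among 7385 genes, the ones with the profile most like H19 were Arpc2 (0.98), Lmf2 (0.98) and Lxn (0.97), and those most like Igf2 were Peg10 (0.98), Sh3bp5 (0.98) and Polg (0.97). Peg10 was closest to Polg (0.99), Igf2 and Rap2c (both 0.98), and Igf2r to Igf2os, Creb3 and Eea1 (each 0.98). Phlda2 was closest to Rbms1 (0.97), Fbn2 (0.94) and Mex3b (0.93), and Peg3 to Zfp516 (0.96), Il6st (0.95) and Mapkapk2 (0.94). Meg3 was closest to Mirg (0.98), a transcript of the same imprinted cluster, Samhd1 (0.97) and Camsap3 (0.96). Mest was closest to Prrx2 (0.94), Slc25a24 and Vim (both 0.93), Cdkn1c to Dsp, Tax1bp3 (both 0.96) and Greb1l (0.95), and Grb10 to Asns (0.91), Sh3bp1 (0.90) and Pank2 (0.88).

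Other genes of the IGF pathway were read from a list of 17. Of these, 8 were measured at 20 CPM or more for E7.25 against E7.0 and for E7.5 posterior against E7.25, and 0 were 2-fold apart either way, beside the 2.78% higher and 1.52% lower and the 1.01% higher and 3.29% lower of all genes. Beside these shares, a count of 0 is no result about the list. Of 9 measured for E7.5 posterior against E7.0, 1 was higher, beside 1.57% of all genes apart: Cdkn1a, a cyclin-dependent kinase inhibitor, at 8.22 and 27.7 CPM. The median log2 ratios of these comparisons were 0.16, 0.08 and 0.18. Igf1, the other IGF ligand, was next to absent, at 0, 0.042 and 0.034 CPM. The signalling receptor Igf1r stood at 46.5, 42.8 and 49.5 CPM in Hand1 positive cells and at 35.8, 39.7 and 44.0 in Utf1 positive cells. It stood at 27.6, 32.0 and 38.0 in Mesp1 positive cells and at 5.12, 6.60 and 7.86 in Ttr positive cells. The Hand1 level was the highest in each library, but no interval was taken for the genes of this list, so close classes are not told apart. The binding protein Igfbp2 stood at 321, 256 and 262 CPM in Utf1 positive cells and Igfbp4 at 198, 149 and 193 CPM in Ttr positive cells, against 16.1, 19.7 and 18.9 CPM in Utf1 positive cells.

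Further imprinted genes were read in the same way. Of 18 other paternal-copy genes, 8 were measured for E7.25 against E7.0 and 2 were at least 2-fold higher, beside 2.78% of all genes: Sfmbt2, at 7.05 and 24.2 CPM, and Jade1, at 27.2 and 56.0 CPM. Sfmbt2, a gene needed in trophoblast, was also the 1 of 8 that was lower at E7.5 posterior than at E7.25, at 4.4 CPM, beside 3.29% of all genes, and 0 of 7 were apart between E7.5 posterior and E7.0, beside 1.57%. Of 10 other maternal-copy genes 3 were measured, and Rian, a noncoding RNA of the Meg3 cluster, was higher at E7.25 (159 CPM) than at E7.0 (73.4 CPM), beside 2.78% of all genes; none of the 3 was apart in the other comparisons. In the same order of comparisons, the median log2 ratios were 0.32, -0.21 and 0.14 for the paternal-copy and 0.56, -0.23 and 0.46 for the maternal-copy list. Rian and Mirg followed Meg3 in Ttr positive cells, with 270, 524 and 375 CPM and 72.3, 84.6 and 83.8 CPM, against 77.4, 134 and 126 CPM and 21.2, 25.4 and 30.7 CPM in Utf1 positive cells. Snrpn ran the other way, at 286, 402 and 242 CPM in Utf1 positive cells and 15.8, 19.5 and 15.98 in Ttr positive cells.

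Of 7 genes known to keep imprints or DNA methylation, 5 were measured (Zfp445, Trim28, Dnmt1, Uhrf1 and Ctcf) and 0 were 2-fold apart in any comparison, which beside the shares of all genes given above is no result about these genes, with median log2 ratios, in that order again, of -0.08, 0.01 and 0.00. Trim28, the corepressor that holds imprints, stood at 379, 407 and 409.6 CPM over all kept cells, and at 415, 473 and 448 CPM in Utf1 positive against 240, 227 and 236 CPM in Ttr positive cells. Dnmt1, the maintenance methyltransferase, stood at 94.4, 89.0 and 94.7 CPM.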

How the data were processed

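The deposited values are counts of UMIs per gene and barcode, whole numbers made by the authors and not scaled; per the file headers, Cell Ranger 6.0.1 wrote them. The genome build is not given in the sources used here; for positions, GENCODE M21 (GRCm38) held 32235 of the 32285 gene identifiers and lacked 50. Filters on cells and the lineage rule are given above. Raw counts were summed over the cells of a class and scaled to CPM (numpy 2.4.6, scipy 1.17.1, pandas 2.3.3, matplotlib 3.10.9). Each group is 1 library, so no test was run. Exact 95% intervals were Poisson for sums, conditional binomial for ratios and Clopper-Pearson for shares. A gene was measured where 1 or both sides of a comparison reached 20 CPM and called at 2-fold. Genes similar to each of the 10 were the 3 with the highest Pearson correlation of log2(CPM + 10) over 13 profiles, leaving out mitochondrial, Gm, Rik and lineage genes. The code was tested on simulated data.

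Alternatives were a minimum of 500 or 2000 detected genes, a ceiling of 5% mitochondrial UMIs, no cells among the 5% with most UMIs, thinning to 5000 UMIs, median scaling, no CPM minimum, positivity at 1 UMI (Ttr 5) or 4 UMIs (Ttr 20), cells positive for several lineage genes kept, and sums without H19. Chosen after seeing the data were the class of all Elf5 positive cells, the class positive for Mesp1 and Hand1, the ranges of Ttr, the split of Ttr positive cells by mitochondrial share, and the cells without visceral endoderm or extraembryonic ectoderm UMIs. The genes and lists were chosen with earlier results of these data known.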

Additional observations from a re-analysis of the deposited data

Results flagged for a closer look

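Mest stood higher at E7.25 than at E7.0 in Mesp1 positive cells (log2 ratio 0.72) and lower in Ttr positive cells (-2.88), a gap of 3.60 between the classes. For E7.5 posterior against E7.0 the ratios were 0.86 and -1.71, a gap of 2.57. Each class went the opposite way to the other, with 1 library per stage, and the difference was not tested. The 2 comparisons share the E7.0 library, in which Mest stood at 244 CPM in the Ttr positive cells with 10 to 19 Ttr UMIs and at 25.3 CPM in those with 50 or more.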

How the results depend on the processing

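The count of genes at least 2-fold apart was 3 under every alternative tried for E7.25 against E7.0 and for E7.5 posterior against E7.25. For E7.5 posterior against E7.0 it was 0 of 9, then 2 with at most 5% mitochondrial UMIs (H19 at -1.13 and Phlda2 at 1.01, log2) and 1 after thinning to 5000 UMIs (Phlda2 at 1.05). The log2 ratio of maternal-copy to paternal-copy UMIs kept its sign. For E7.0 it was 1.46, and 1.41 with at most 5% mitochondrial UMIs, 1.44 after thinning and 1.19 without H19. For E7.25 it was 1.82, and 1.65 with at most 5% mitochondrial UMIs and 1.18 without H19. For E7.5 posterior it was 1.56, and 1.52 with at most 5% mitochondrial UMIs, 1.60 without the deepest 5% of cells, 1.59 after thinning and 1.41 without H19. The 10 genes were highest in Hand1, Ttr or Elf5 positive cells under every alternative but 1, 9 of 10 at E7.25 with cells positive for several lineage genes kept. Of 180 log2 ratios of single genes between libraries under the alternatives, 63 moved beyond the counting interval; Grb10 for E7.5 posterior against E7.25, at 0.00, changed sign in 3. Of 1120 levels by class, 55 moved by over 1.5 times, 33 of them with cells positive for several lineage genes kept and 5 in cells without visceral endoderm or extraembryonic ectoderm UMIs, each a lower level of H19, Igf2 or Peg10. The cause was not tested. No paired analysis was possible because each group has 1 library. With 51 Hand1 positive cells at E7.0 and 22 Elf5 positive cells at E7.25, depth limits the rarer genes most: Igf2r rests on 17 and 6 UMIs there.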
